A study of Mus musculus with 28 samples.

Results

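The regions described here are stretches of mouse chromosomes 1 to 19 that carried chromatin state U2 in wild-type fibroblasts under treatment GS and state U1 in the other 3 conditions examined. They were found as maximal runs of 200 bp bins, 1 kb or longer, that were U2 in WT-GS and U1 in KO-GS, KO-NT and WT-NT. There were 9292 such regions, 3.76% of the 246922 runs of 1 kb or longer in which the combination of the 4 states did not vary. They covered 34.6 Mb of the 2472 Mb of autosomes. The regions were chosen by their states in the 4 segmentations, so the states inside them are a description and carry no test.

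The cells were mouse embryonic fibroblasts of strain 129s2, taken from embryos of day 14.5 and used at passages 3 to 4. The KO cells were SirT7-/- and the WT cells were wild type, and both genotypes were examined under treatments coded GS and NT. The labels do not expand the codes, and the title of the series concerns the response to glucose starvation. Each genotype and treatment had 2 libraries of H3K27me3 ChIP, 2 of macroH2A1.1 ChIP (mH2A1 in the sample names) and 1 paired-end input library. WT cells also had 2 single-end input libraries per treatment. The authors deposited 1 segmentation per genotype and treatment, which the descriptions of its H3K27me3 and mH2A1 libraries name. SIRT7 ChIP was made from WT cells only, with 2 libraries per treatment and 1 deposited peak list per treatment. Whether replicate libraries came from separate cultures is not stated in the labels.

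H3K27me3 is the histone mark written by Polycomb repressive complex 2, and it covers silent developmental genes and broad inactive stretches. MacroH2A1 is a histone H2A variant with a large globular macro domain, found at repressed chromatin and on the inactive X chromosome of female cells. Its splice form macroH2A1.1 binds ADP-ribose. SIRT7 is a nuclear member of the sirtuin family, NAD-dependent enzymes that remove acyl groups from proteins, and is known for its part in ribosomal RNA transcription and in stress responses.

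Each segmentation assigned every bin to 1 of 4 states, U1 to U4. The sources used here do not give the mixture of the 2 ChIP targets behind each state or say whether a state was defined alike in every segmentation, so U2 cannot be read as either mark alone. On the autosomes U2 covered 20.9% in WT-GS and 20.8% in WT-NT, and 17.6% in KO-GS and 17.2% in KO-NT. The KO-NT segmentation was the coarsest, with 232353 segments on the autosomes against 314776 to 348157 in the others, and its median U2 segment was 3400 bp against 2600 to 2800 bp. The sequencing depth of the libraries is unknown. Because 1 segmentation stands for both replicates of a condition, a difference between 2 segmentations has no replicate error. Library depth, antibody efficiency and chance assignment cannot be told apart from treatment and genotype. The word gain below stands for U1 in NT and U2 in GS, and loss for the reverse, as assigned states without a test. Gene content was not analysed here, because the gene tables used here are of another build than the coordinates, which are mm9 and counted from 1.

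The regions were mostly short stretches of a few kilobases. Their median length was 2800 bp, with the middle 50% between 1800 and 4800 bp, 90% at 7200 bp or less and the longest at 26400 bp. By length, 2571 regions were 1 to under 2 kb, 4535 were 2 to under 5 kb, 1824 were 5 to under 10 kb and 362 were 10 kb or longer. The 362 longest held 13.5% of the sequence. Just inside the 1 kb limit stood 518 runs of 1000 bp, and just outside it 623 runs of 800 bp. With shorter runs included the pattern had 13274 runs and 36.3 Mb, so the limit kept 95.4% of the sequence with this combination of states.

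For background, the gain of U2 in these regions was set beside the frequency of such assignments over all autosomal bins. In WT 4.34% of the bins that were U1 in WT-NT were U2 in WT-GS, and in KO 4.63% of the bins that were U1 in KO-NT were U2 in KO-GS. The reverse assignment held for 12.4% of the U2 bins of WT-NT and for 17.3% of the U2 bins of KO-NT. U2 bins were far fewer than U1 bins, so these percentages do not compare amounts of sequence gained and lost. The bins gained in WT amounted to 74.4 Mb, and 48.8% of them were U1 in both KO segmentations, which is the sequence the regions come from. A further 18.8% were U1 in KO-GS and U2 in KO-NT, 16.7% were U2 in KO-GS and U1 in KO-NT, and 12.7% were U2 in both. The bins lost in WT amounted to 63.9 Mb, and 50.1% of them were U1 in both KO segmentations, so the share was not particular to gains. Over all autosomal bins 68.8% were U1 in both KO segmentations.

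Runs that were U2 in 1 segmentation only were common in every condition, and the count in WT-GS was close to that in WT-NT. The 9292 regions stood beside 4139 runs that were U2 in KO-GS only, 4021 in KO-NT only and 8717 in WT-NT only, all of 1 kb or longer. Against the mirrored runs of WT-NT, the regions were 1.07 times as many and held 1.14 times the sequence (34.6 against 30.4 Mb). Against the runs of KO-GS they were 2.24 times as many and held 2.87 times the sequence, where KO segmentations held less U2 altogether. Median lengths were 2800 bp for the regions, 2200 bp for KO-GS, 2800 bp for KO-NT and 2800 bp for WT-NT. The excess over WT-NT lay in runs of 2 kb or longer and was proportionally largest in the longest class. The ratio of regions to WT-NT runs was 0.998 at 1 to under 2 kb, 1.05 at 2 to under 5 kb, 1.14 at 5 to under 10 kb and 1.55 at 10 kb or longer, where 362 regions stood beside 234 runs. The WT-GS segmentation was also coarser than that of WT-NT. It had 314776 autosomal segments against 348157, and a median U2 segment of 2800 bp against 2600 bp. How far this bears on the ratios was not tested. With 1 segmentation per condition none of these ratios has a test.

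**Figure D1:**
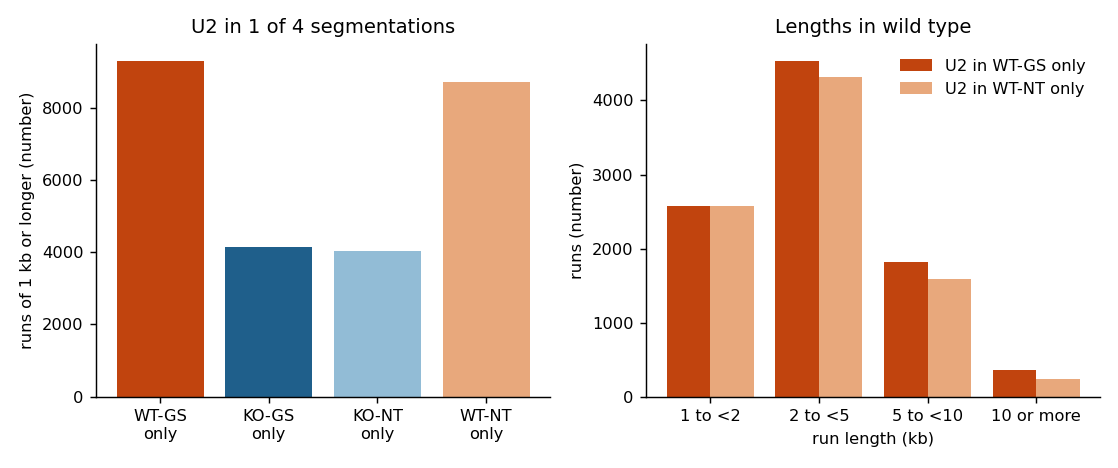
The left panel gives the number of runs of 1 kb or longer that were U2 in 1 of the 4 segmentations and U1 in the other 3, by the segmentation that was U2. The right panel splits the 9292 runs of WT-GS and the 8717 of WT-NT by length, and the groups are nearly level at 1 to under 2 kb and apart at 10 kb or longer (362 and 234).

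Bins that were U1 in KO-NT were U2 in KO-GS about as often where WT cells had gained U2 as where they had lost it. Of the bins gained in WT that were U1 in KO-NT, 25.2% were U2 in KO-GS. For bins lost in WT that were U1 in KO-NT the share was 24.6%, and for bins that were U1 in both WT segmentations it was 0.816%. Beside the regions themselves, 1778 of 9292 (19.1%) had an adjoining bin that was gained in KO, and 4193 (45.1%) had one within 10 kb. Bins lost in KO adjoined 2034 regions (21.9%) and lay within 10 kb of 4183 (45.0%). Around the mirrored WT-NT runs a bin gained in KO lay within 10 kb of 44.8% and a bin lost in KO within 10 kb of 43.8%. Of all autosomal bins sampled every 5 kb, 17.8% had a bin gained in KO within 10 kb and 13.6% a bin lost in KO. Of sampled bins that were U1 in all 4 segmentations the shares were 7.47% and 5.64%. The regions and the mirrored runs both stood above these shares, but they are longer than a bin, lie in sequence richer in U2 and were chosen with the KO states, so no test was made. Nearly as many regions thus lay near a KO loss as near a KO gain. Within 100 kb the shares were 83.3% for a KO loss and 87.6% for a KO gain. They were 83.0% and 89.2% for the mirrored runs, and 47.9% and 62.2% for all autosomal bins sampled. For bins that were U1 in all 4 segmentations they were 36.6% and 47.2%. U2 itself adjoined the regions in 20.3% of cases in KO-GS and in 23.0% in KO-NT, and lay within 10 kb of 60.7% in KO-GS and 60.4% in KO-NT.

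The regions fell into classes by the U2 segment of WT-GS in which they lay. The largest class, 3264 regions (35.1%, Wilson 95% interval 34.2 to 36.1%), lay in segments that held no U2 in any of the other segmentations. Another 2719 (29.3%, interval 28.3 to 30.2%) adjoined U2 of WT-NT on 1 side, and 250 (2.69%, interval 2.38 to 3.04%) lay between U2 of WT-NT on both sides. A segment that held U2 of WT-NT further off took in 1915 regions (20.6%), and the remaining 1144 (12.3%) lay in segments that held U2 of KO but none of WT-NT. The intervals cover counting error only, and regions in 1 segment are not independent. The regions filling a gap between U2 on both sides were the longest class, with a median of 4200 bp against 2800 bp in each of the other 4 classes. In all 2969 regions (32.0%, interval 31.0 to 32.9%) adjoined U2 of WT-NT, a share that varied from 31.0 to 33.2% among the 4 length classes. The share was not particular to the regions. U2 of WT-NT adjoined 30.6% of the runs that were U2 in KO-NT only and 29.0% of those in KO-GS only. It adjoined 49.3% of the runs gained in both genotypes. U2 of WT-GS adjoined 31.3% of the runs that were U2 in WT-NT only.

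Most regions were pieces of longer U2 segments of WT-GS. Of the 9292 regions 2632 (28.3%) were a whole WT-GS segment, and a region made up a median of 50.0% of its segment. The regions lay in 8428 of the 78170 U2 segments of WT-GS (10.8%). Those 8428 segments had a median length of 6200 bp, and 745 of them held more than 1 region. Together the regions made up 6.70% of all U2 sequence of WT-GS. The mirrored WT-NT runs were whole segments in 26.1% of cases and made up a median of 54.1% of theirs. Of the 3614 runs gained in both genotypes 8.08% were whole segments. They made up a median of 28.6% of their segments, which had a median length of 8600 bp. The rule for these runs asks for U2 in KO-GS, which covered 17.6% of the autosomes. The rule for the regions asks for U1 in KO-GS, which covered 72.3%. The shares thus depend on the rules, and the difference was not tested.

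State U4 was frequent at the edges of the regions in WT-GS. Of the 18584 adjoining bins, 7.04% were U4 in WT-GS, against 1.67% in KO-GS, 0.705% in KO-NT and 1.60% in WT-NT, where U4 covered 1.71, 1.85, 1.01 and 2.12% of the autosomes. U2 took 45.1% of the adjoining bins in WT-GS and U1 44.1%. The mirrored runs showed the same at their own condition, with U4 in 11.3% of adjoining bins of WT-NT and 1.46% in WT-GS. Every such edge ends a U2 run in the condition that chose it, so no test applies.

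The surroundings of the regions were richer in U2 than the autosomes as a whole in each of the 4 segmentations. Between 100 and 200 kb from the edges U2 covered 28.7% in WT-GS, 21.0% in KO-GS, 22.9% in KO-NT and 26.9% in WT-NT, against autosomal shares of 20.9, 17.6, 17.2 and 20.8%. At 20 to 50 kb the shares were 31.2, 21.9, 23.6 and 28.7% in the same order. Close to the regions the WT-GS share was highest and the others were lowest, as the rule imposes: within 1 kb it was 44.4% in WT-GS, 13.1% in KO-GS, 14.2% in KO-NT and 19.9% in WT-NT. WT-GS remained above WT-NT in every distance band out to 200 kb. The bands also took in other regions, which lay a median of 76.0 kb apart and are U2 in WT-GS and U1 in WT-NT by the rule. The rule thus adds to this excess at every distance, and the excess was not tested. KO-GS was below KO-NT in every band around the regions, and the same held around the mirrored runs of WT-NT. Those runs too lay in U2-rich surroundings, with U2 at 28.2% in WT-GS, 21.7% in KO-GS, 23.0% in KO-NT and 28.8% in WT-NT between 100 and 200 kb.

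**Figure D2:**
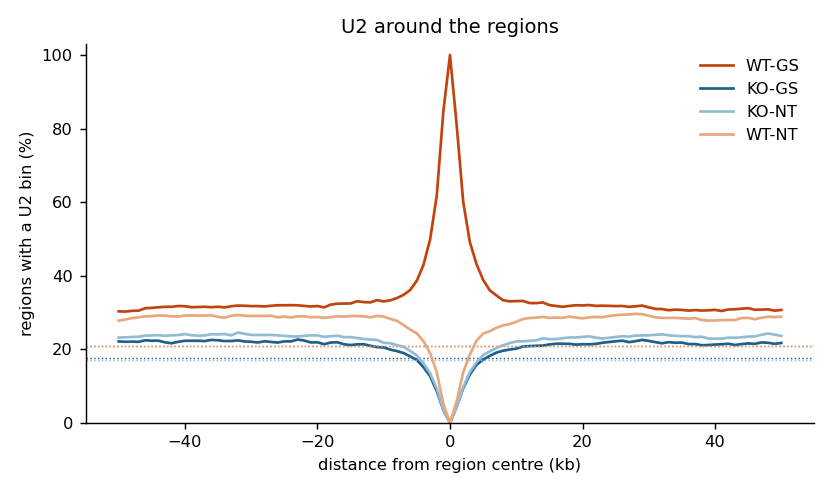
Each line gives the share of the 9292 regions (percent) that have a U2 bin at a given distance from the region's centre (kb), for 1 segmentation, and dotted lines mark the autosomal U2 shares. The peak in WT-GS and the dip to 0 in the others at the centre follow from the rule, and all 4 lines stay above their autosomal shares at 50 kb.

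Away from their edges, states U3 and U4 were scarcer around the regions than on the autosomes as a whole. At 100 to 200 kb U3 covered 5.47% in WT-GS, 5.39% in KO-GS, 5.30% in KO-NT and 5.15% in WT-NT, where the autosomal shares were 8.40, 8.23, 8.30 and 7.69%. U4 covered 1.03% in WT-GS, 1.06% in KO-GS, 0.672% in KO-NT and 1.29% in WT-NT at that distance. The mirrored runs of WT-NT had more of both states around them at that distance, with U3 at 8.35% in WT-GS and 7.71% in WT-NT and U4 at 1.37% in WT-GS and 1.82% in WT-NT. Around the runs of KO-GS U3 covered 10.6% in WT-GS and 9.68% in WT-NT, and U4 2.21% in WT-GS and 2.72% in WT-NT. The median distance from a region to the nearest U3 or U4 bin was 11.2 kb in WT-GS and 14.4 kb in WT-NT, against 7 kb and 3.2 kb for the mirrored runs and 7.80 kb and 7.80 kb for the runs of KO-GS. The runs of KO-NT lay farther from these states, at 27.4 kb in WT-GS and 25.6 kb in WT-NT. For the nearest U2 bin of WT-NT the median distance was 2.00 kb for the regions and 2.20 kb for the runs of KO-GS.

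The regions were spread over all 19 autosomes, at 3.78 ± 0.689 per Mb (mean and SD over chromosomes). The density was highest on chromosome 3, with 848 regions or 5.31 per Mb, followed by chromosome 10 with 4.74 per Mb and chromosome 18 with 4.53 per Mb. It was lowest on chromosome 7, with 2.62 per Mb, and chromosome 5, with 2.88 per Mb. The mirrored runs averaged 3.54 ± 0.499 per Mb. Regions outnumbered mirrored runs on 14 autosomes and were fewer on 5, and the ratio ran from 0.792 on chromosome 5 (439 and 554) to 1.23 on chromosome 3 (848 and 689). The X chromosome, which the rule leaves out, had 90 runs with the same combination of states, or 0.540 per Mb, where U2 covered 5.98% in WT-GS.

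**Figure D3:**
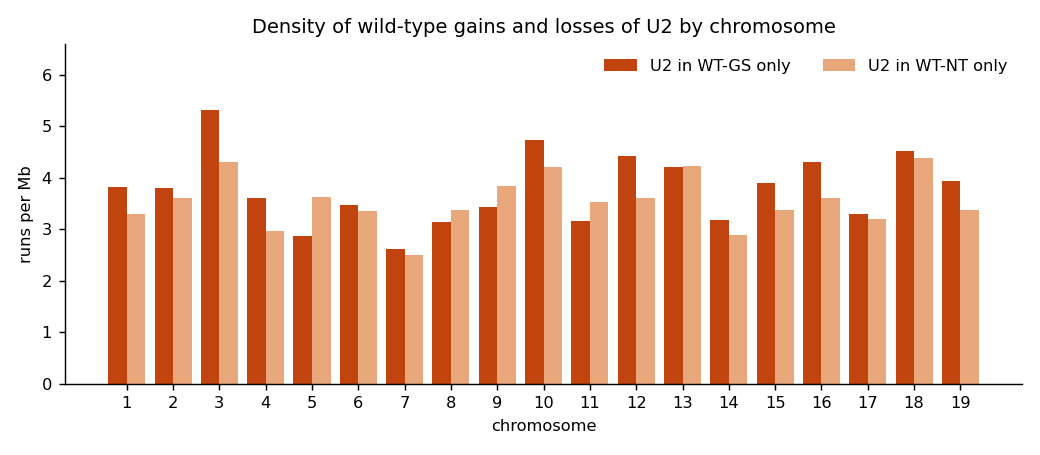
Bars give the number of runs per Mb on each autosome, for the 9292 regions (U2 in WT-GS only) and the 8717 mirrored runs (U2 in WT-NT only). Both kinds were found on every autosome, and the regions exceeded the mirrored runs most on chromosome 3 and fell furthest below them on chromosome 5.

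Along the chromosomes the regions showed no large imbalance. With each chromosome divided into 5 equal parts from its low to its high coordinate, the parts held 17.7, 22.3, 21.2, 21.1 and 17.7% of the regions, and 17.1, 21.7, 19.7, 20.7 and 20.8% of the mirrored runs. Neighbouring regions lay a median of 76.0 kb apart, with the middle 50% of the gaps between 19.6 and 250 kb. Gaps of 10 kb or less made up 16.7%, and 2791 regions (30.0%) had another within that distance. The largest such group held 10 regions with 45.4 kb of sequence within 73.6 kb (chr15:60016401-60090000), and the next held 7 regions within 60.2 kb (chr6:65625201-65685400). These groups were picked after their values were seen.

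In windows of 1 Mb the regions were widespread but uneven, and most windows that held them also held losses. Of 2463 full windows 1913 (77.7%) contained sequence of the regions, with a median of 7.40 kb and a highest value of 149.8 kb. The 246 windows with most held 39.9% of it. Mirrored loss was also present in 1665 windows, and gain exceeded loss in 1121 windows while loss exceeded gain in 1006. Among the 128 windows with 50 kb or more of the regions, loss reached or exceeded gain in 5. Those windows were chosen for their gain, which favours a lower loss in them, so the count carries no test.

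The 5 windows with most sequence of the regions were U2-richer in WT-GS than in WT-NT, as their choice implies. In 4 of the 5 U2 was lower in KO-GS than in KO-NT, where the autosomal shares were 17.6% and 17.2%. The windows were chosen through a rule that uses the KO states. The same count over all windows is not given, so this one carries no test. At chr3:155000001-156000000, 25 regions held 149.8 kb and mirrored losses 6.6 kb. There U2 covered 31.6% in WT-GS, 15.1% in KO-GS, 17.1% in KO-NT and 10.3% in WT-NT. The window at chr13:27000001-28000000 held 131 kb in 25 regions and 38.4 kb of mirrored loss. Its U2 share in WT went the other way from that in KO, with 60.5% in WT-GS against 36.7% in WT-NT, and 25.9% in KO-GS against 48.8% in KO-NT. At chr6:110000001-111000000, 20 regions held 114 kb, and U2 was likewise higher in GS in WT (22.7% in WT-GS, 6.90% in WT-NT) and lower in GS in KO (3.92% in KO-GS, 17.02% in KO-NT).

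The remaining pair of windows differed in what KO cells showed. At chr19:54000001-55000000, with 20 regions and 122 kb, U2 covered 31.4% in WT-GS and 22.3% in WT-NT, and 12.9% in KO-GS and 7% in KO-NT, the only window of the 5 with more U2 in KO-GS than in KO-NT. At chr1:115000001-116000000, 12 regions held 104 kb and mirrored losses 0 kb. U2 covered 16.8% of that window in WT-GS, 3.16% in KO-GS, 4.34% in KO-NT and 4.06% in WT-NT, so the segmentation of WT-GS stood apart from the other 3.

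The 10 longest regions measured 20.4 to 26.4 kb and differed in kind. The longest, at chr12:35177601-35204000, lay inside a WT-GS U2 segment of 69.4 kb. U2 of KO-GS adjoined it on both sides and covered 59.4% of that segment, U2 of WT-NT covered 8.07% and U2 of KO-NT 0%. The state of the KO cells thus also differed between GS and NT around this region, and the region was a stretch of U1 between 2 KO gains.

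**Figure D4:**
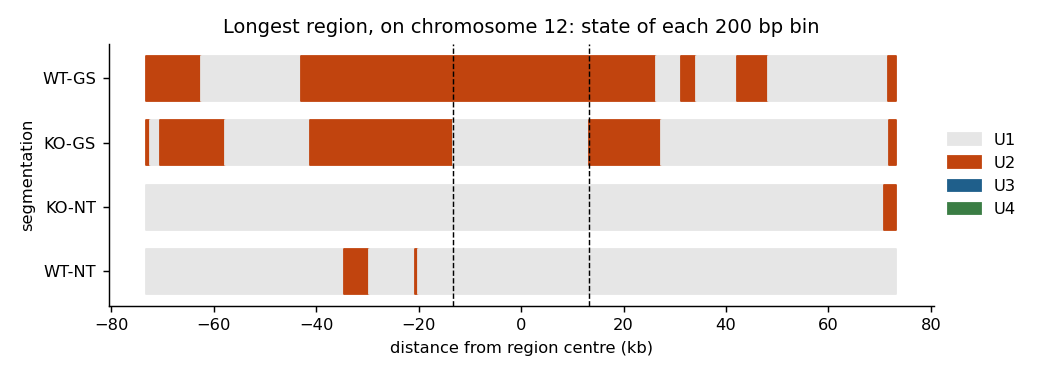
The map shows the state of each 200 bp bin in the 4 segmentations around the longest region (dashed lines), by distance from its centre (kb). U2 of KO-GS ends at both edges of the region and the nearest U2 of KO-NT starts 70.8 kb from its centre, and no bin of the window shown was U3 or U4.

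The second longest, at chr1:115293201-115317200 (24.0 kb), was a whole U2 segment of WT-GS, with U1 on both sides in all 4 segmentations. Within 20 kb of it U2 covered 14.5% in WT-GS, 0% in KO-GS, 0% in KO-NT and 4.50% in WT-NT. It lies in the window of chromosome 1 named above. The regions at chr19:22381001-22403200 (22.2 kb), chr4:51524201-51544800 (20.6 kb) and chr18:52435201-52455600 (20.4 kb) were whole segments too. Around the region on chromosome 4 there was no U2 within 20 kb in any segmentation, so it stood as an island, whereas 30.0% of the sequence within 20 kb of the one on chromosome 19 was U2 in WT-NT.

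The other 5 of the longest regions adjoined or lay near U2 of other conditions. The region at chr3:133625001-133648000 (23.0 kb) lay between U2 of WT-NT on both sides. Those at chr16:73494401-73518200 (23.8 kb), chr1:160451201-160474600 (23.4 kb) and chr10:106675001-106697600 (22.6 kb) adjoined it on 1 side. The region on chromosome 10 was 17.04% of a segment of 132.6 kb, of which 71.5% was U2 in WT-NT. The region at chr13:25595401-25617800 (22.4 kb) adjoined U2 of KO-NT. In 5 of the 10 the WT-GS segment held no U2 of either KO segmentation, and in 2 of the 10 U2 of KO-GS adjoined the region. The nearest SIRT7 peak of GS cells lay between 42.1 and 2309 kb away from these 10.

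SIRT7 binding in WT cells was measured apart from the segmentations and played no part in choosing the regions. The GS list held 2671 peaks, 2272 of them on autosomes, and the NT list held 90. The regions overlapped GS peaks at a rate close to that of autosomal sequence in general. GS peaks covered 0.125% of the sequence of the regions, against 0.129% of all autosomal sequence, 0.164% of sequence that was U1 in all 4 segmentations and 0.0507% of sequence that was U2 in all 4. For the runs of KO-GS the coverage was 0.162%, for those of KO-NT 0.189% and for those of WT-NT 0.0906%. In numbers 40 regions (0.430%, interval 0.316 to 0.586%) overlapped a GS peak. So did 20 runs of KO-GS (0.483%, interval 0.313 to 0.745%), 25 of KO-NT (0.622%, interval 0.421 to 0.916%) and 24 of WT-NT (0.275%, interval 0.185 to 0.409%). The intervals overlap, but they cover counting error only and take regions and runs as independent, so the differences were not tested. No region overlapped an NT peak, and no run of WT-NT did. Among the other sets 1 run of KO-GS, 1 of KO-NT and 2 of those gained in both genotypes did. With 90 peaks in the NT list, such counts are too small to set the regions apart.

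The share within 100 kb of a GS peak was close to that of sequence that was U1 in all 4 segmentations. Of the regions 1606 (17.3%, interval 16.5 to 18.1%) lay within 100 kb of a GS peak, against 15.1% of autosomal bins sampled every 5 kb and 17.1% of sampled bins that were U1 in all 4 segmentations. The share was 13.1% for runs of KO-GS (interval 12.1 to 14.2%), 18.8% for runs of KO-NT (interval 17.6 to 20.1%) and 15.4% for runs of WT-NT (interval 14.7 to 16.2%). Runs gained in both genotypes had 12.2% (interval 11.1 to 13.3%). The regions were above the U1 bins on 10 of 19 chromosomes, with shares from 11.3% on chromosome 9 to 23.6% on chromosome 18. A region is longer than a bin and has more sequence from which to measure, and neighbouring regions share peaks, so the intervals are too narrow.

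At larger distances the regions were somewhat nearer to GS peaks than the sampled bins were, and the runs of KO-NT were nearer still by median distance. The median distance was 392 kb for the regions, 550 kb for runs of KO-GS, 357 kb for runs of KO-NT and 455 kb for runs of WT-NT, against 452 kb for bins that were U1 in all 4 segmentations and 501 kb for all autosomal bins. Within 1000 kb lay 78.6% of the regions, 73.1% of the U1 bins and 71.0% of all autosomal bins. Among the classes of regions the share within 100 kb ran from 16.5% for those adjoining U2 of WT-NT on 1 side to 19.6% for those between U2 on both sides, and among the length classes from 16.2% at 1 to under 2 kb to 18.4% at 5 to under 10 kb.

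**Figure D5:**
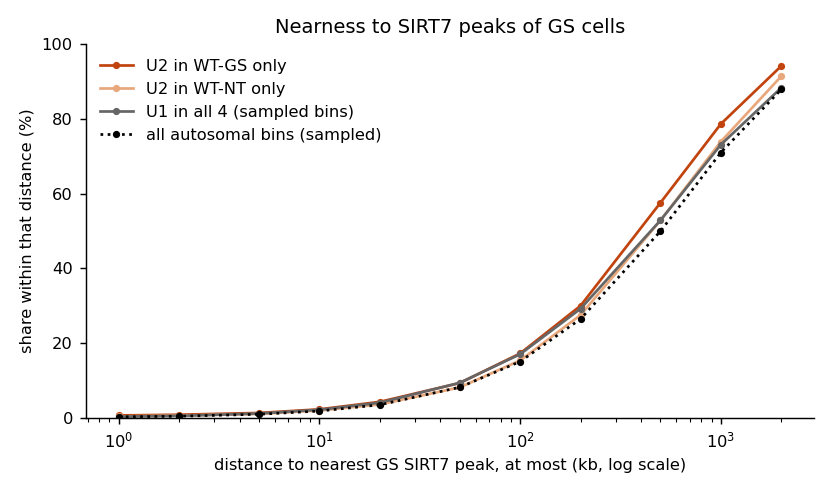
Each line gives the share (percent) within a given distance (kb, log scale) of a GS SIRT7 peak, for the 9292 regions, the 8717 mirrored runs of WT-NT, and sampled autosomal bins, either U1 in all 4 segmentations or all together. At 1 kb the regions stand at 0.710%, the mirrored runs at 0.436%, the U1 bins at 0.407% and all autosomal bins at 0.326%. At 100 kb the regions and the U1 bins stand at 17.3% and 17.1%. At 500 kb the regions stand at 57.6%, the mirrored runs at 52.8%, the U1 bins at 52.9% and all autosomal bins at 49.96%. Regions and mirrored runs are longer than a bin, so at short distances their shares are not on equal terms with those of bins.

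The 40 regions that overlapped a GS peak met 41 peaks, 1.80% of those on autosomes, on 16 chromosomes. The authors' score of these peaks had a median of 582, from 537 to 860, against a median of 629 over all autosomal GS peaks. None of them overlapped an NT peak, where the NT list held only 90 peaks. The overlapping regions had a median length of 4300 bp, and the bases shared had a median of 1062 bp. The longest of them, at chr13:76551601-76566800, was 15200 bp, and its segment held no U2 in the other segmentations. A peak of 2162 bp with score 735, from 76560058 to 76562219, lay wholly within it. The next lay at chr13:28314401-28327600, chr14:117271801-117284800, chr4:14925801-14937200 and chr2:141918601-141927600, each with its peaks wholly inside, 2 peaks on chromosome 14 and 1 on each of the others. None of these 5 regions adjoined U2 of WT-NT, where 32.0% of all regions did, and 5 picked regions are too few for a comparison.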

How the data were processed

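The members and comparison sets were chosen with earlier results of these data known. Per the submitters' processing notes, deepTools 2.4.2, MACS 1.4.2, SAMtools 0.1.19, Bowtie, Trimmomatic 0.36 and FastQC 0.11.3 were named, with builds mm9 and hg19 and no roles. The segmented ends of all 19 autosomes equalled mm9 lengths rounded down to 200 bp. The authors deposited 4 segmentations (a state name per segment, with no numeric unit) and 2 SIRT7 peak lists, each peak with a score whose computation the sources used here do not give. How the segmentations were made is not given. Depth is unknown.

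Here, states were read per 200 bp bin with Python 3.11.15 and numpy 2.4.6, and runs of 1 kb or longer were listed for each combination. Distances ran between nearest edges, and overlap required 1 bp. Wilson 95% intervals (scipy 1.17.1) cover counting error only. No test was made, since each condition has 1 segmentation. The code was tested on simulated segmentations. Regions named are the 10 longest, the 5 longest that overlap a GS peak, and the 5 windows of 1 Mb with most member sequence. The planned gene lists were not used, nor was sequence printed, because no mm9 annotation or genome was used here.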

Additional observations from a re-analysis of the deposited data

How the results depend on the processing

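Each of the 8 summary values was recomputed with 1 choice changed, giving 45 alternative values. The number of regions was between 6721 (runs of 2 kb or longer) and 10636 (600 bp or longer) and stayed within 1.5 times 9292 in all 7 alternatives tried. The ratio to mirrored runs of WT-NT stayed between 1.04 and 1.09, inside its counting interval. The ratio to runs of KO-GS was 2.15 with runs of 600 bp or longer, 2.68 with 2 kb or longer, 1.95 with any state other than U2 in the other genotype and 2.11 with 1 kb bins. The median length was 2400 bp with 600 bp or longer, 3800 bp with 2 kb or longer, and 3000 bp with runs parted by 1 bin joined, with 1 kb bins and with segments under 1 kb joined. The share next to U2 of WT-NT was 40.3% with 1 kb bins, 34.1% with short segments joined and 42.9% when U2 within 1 kb counted. The share near a GS peak was 2.35% at 10 kb, 0.430% for overlap and 9.30% with the upper 50% of peaks by score, for which the median distance was 758 kb. The share of WT gains that were U1 in both KO segmentations stayed between 48.7 and 48.8%. The alternative on regions inside genes was not run, for want of an annotation of the build. No replicate could be left out, since each segmentation and each peak list was deposited once for both replicates. No paired analysis was possible because no file holds a value per replicate.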
